A study of Mus musculus with 12 samples.

Results

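Transcripts of 7 genes of the Ras, Raf, MEK and ERK cascade were followed across 12 mouse pancreatic tumors. The genes are Hras and Nras (Ras), Araf and Braf (Raf), Map2k1 and Map2k2 (MEK) and Mapk3 (ERK). They were taken by gene name, 7 of the 22630 genes in the data. Of these, 6 carried the same symbol in the data, and Hras was found under its older symbol, Hras1. The rule itself used names and no expression values, but it was set with earlier results of these data known.

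The tumors grew subcutaneously from KCip53-1 cells, a mouse pancreatic cancer line in which doxycycline (dox) switches on a p53R270H transgene. By the study's methods, the line was sorted by its dsRed reporter from the tumor of one KCip53 mouse. That mouse carried Ptf1a-Cre, which acts in pancreatic epithelium, a Cre-activated oncogenic Ras allele, the transgene TREp53R270H and a Cre-activated rtTa at the Rosa26 locus. Every tumor, the controls included, therefore carried the oncogenic Ras allele and arose from a single line. Immunocompromised NSG hosts, 8 to 10 weeks old, received 2 tumors each, with 500000 cells per tumor, and tumors were followed to a diameter of 1.5 cm. Hosts of no-dox tumors (n = 4) were never given dox. The paper reports, however, that the KCip53 lines had been kept in culture with dox. Plus-dox tumors (n = 4) had dox in the drinking water, at 0.2 g/l in 5% sucrose, for 36 days (the sources used here do not say whether no-dox hosts also drank sucrose), and off-dox tumors (n = 4) had 33 days of dox followed by 3 days without it. RNA came from whole, unsorted tumors, so that host cells contributed to every value, and fewer cells of a type cannot be told apart from less RNA per cell.

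Ras proteins are small GTPases that switch between a GTP-bound active and a GDP-bound inactive form. Active Ras recruits Raf kinases to the membrane, Raf phosphorylates MEK, and MEK phosphorylates ERK, which acts on many substrates, among them transcription factors. Signal flow through this cascade is set largely by GTP loading and phosphorylation of the proteins, which RNA abundance does not measure. In pancreatic ductal adenocarcinoma the cascade is commonly driven by a mutated Ras gene. The study also treated tumors of this line with a MEK inhibitor, and the data here bear on the RNA level of the targeted kinases and their partners in each dox group.

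The Raf and MEK paralogs resemble each other in coding sequence to a different degree, which matters for 50-base reads that are assigned to one gene. The most alike 50-base coding window of each of these pairs is printed 5′ to 3′ (mm9), with capitals at the bases that differ between the paralogs. Araf and Braf differed at 8 of 50 bases, in a window that crosses an exon junction in both genes (chrX:20434880-20434914 and chrX:20435004-20435018, plus strand, and chr6:39589589-39589623 and chr6:39578640-39578654, minus strand).
Araf: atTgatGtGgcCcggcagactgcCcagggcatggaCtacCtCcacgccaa
Braf: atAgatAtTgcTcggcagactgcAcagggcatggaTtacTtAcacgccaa
Map2k1 and Map2k2 shared a coding run of 56 identical bases that crosses from exon 3 into exon 4 in both genes, and the window below lies in it (chr9:64060391-64060438 and chr9:64052994-64052995, minus strand, and chr10:80577870-80577917 and chr10:80580897-80580898, plus strand).
Map2k1: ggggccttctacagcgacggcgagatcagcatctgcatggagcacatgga
Map2k2: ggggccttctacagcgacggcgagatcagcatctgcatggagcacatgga

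In the mm9 genome, 19 coding 50-base stretches of Map2k1 (1.68% of 1133) and 19 of Map2k2 (1.52% of 1251) matched the other gene with at most 1 mismatch. For Mapk3 the number was 40 (3.29% of 1217), in places that include the pseudogenes Gm7746 and Gm15546, and for Braf it was 43 (1.63% of 2641), all in one unannotated stretch of chromosome 10. No coding stretch of Hras, Nras or Araf had such a copy elsewhere in the genome. Spliced stretches were compared with the unspliced genome, so copies across an exon junction could be missed. Of the coding 50-base stretches, 7 were shared exactly between members, while neither MEK gene had an exact copy in that search. How reads with several positions were counted is not given in the sources used here. Part of the Map2k1, Map2k2, Mapk3 and Braf values is therefore uncertain. Only coding sequence was searched, while counts cover all exonic bases, such as 9727 for Braf against its 2641 coding stretches. How large the uncertain part is, for any of the genes, is thus not known. Map2k1 also contains Uchl4, a gene of 1162 bases on the opposite strand, and the libraries did not keep strand, while Araf lies within the wide spans given for Gm and Gm10921.

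Counted reads ran from 19845923 to 33137609 per tumor, and each member had at least 705 counts in every tumor. Relative to all mapped reads, 88.4% to 89.4% fell on genes without dox, 82.2% to 87.1% under continuous dox and 81.1% to 85.8% after its removal, so this share was higher in every no-dox tumor than in any other tumor. The 2 leading epithelial markers were expressed in all tumors, with Krt18 at 391 to 947 RPKM and Krt8 at 318 to 973 RPKM (reads per kilobase of exon, scaled to the total of mapped reads). The list was uneven in plus-dox tumor 2, where Epcam was at 7.76 RPKM (40.9 to 388.3 in the other tumors). Muc1 was at 1.45 RPKM there (13.8 to 138.4 in the others), while Krt19 was at 178.6 RPKM. The 10 epithelial genes together summed to 2354 to 3255 RPKM (no-dox), 1367 to 2116 RPKM (plus-dox) and 1109 to 2769 RPKM (off-dox). The 8 fibroblast genes, led by Col3a1 at 242 to 1096 RPKM and Col1a2 at 349 to 762 RPKM, summed to 1071 to 1957, 1535 to 2992 and 1257 to 1489 RPKM in the same order. Of the 5 acinar markers, Ptf1a and Amy2b were listed at 0 in all tumors, and Cela1, at 6.26 to 116.3 RPKM, was the only one with a mean over 1 RPKM. Among the other lists, the 5 skeletal muscle genes differed most between tumors, with sums of 7.79 to 147.2 RPKM (no-dox), 111.5 to 364.5 RPKM (plus-dox) and 8.13 to 1004 RPKM (off-dox). None of these 5 was called in off-dox against no-dox tumors, where 1.34% of all genes were. In that comparison 4 of the 5 were higher at an unadjusted p under 0.05 by edgeR. Of all genes, 20.4% had such a p in either direction. The median log2 fold change of the 5 was 2.84. By the mean log2 CPM (counts scaled to library size) of the epithelial genes, plus-dox tumor 2 at 4.82 and off-dox tumor 4 at 6.40 were lowest.

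By RPKM, Mapk3 was the most abundant of the genes and Braf the least. RPKM divides by the exonic length of a gene over its RefSeq transcripts, 9727 bases for Braf and 2272 for Hras. Levels of different genes therefore depend on that length, which need not be that of the transcripts expressed. Counts per tumor were nearer, at 705 to 1293 for Braf and 929 to 1848 for Hras. Mean RPKM over the 12 tumors was 110.2 for Mapk3, 57.5 for Map2k1, 31.7 for Map2k2, 29.5 for Nras, 22.7 for Araf, 20.8 for Hras and 3.27 for Braf. Mapk3 exceeded Map2k1 in 12 of 12 tumors, by 1.93-fold on average, and Map2k1 exceeded Map2k2 in 12 of 12, by 1.79-fold. Map2k2 and Nras were not separated beyond the spread between tumors, with Map2k2 higher in 8 of 12, and neither were Araf and Hras, with Araf higher in 9 of 12. Nras exceeded Araf in 12 of 12 tumors by 1.30-fold, and Hras exceeded Braf in 12 of 12 by 6.38-fold. Among 14586 genes with a mean over 0.25 RPKM, Mapk3 ranked at percentile 96.0, Map2k1 at 91.8 and Braf at 28.7.

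**Figure D1:**
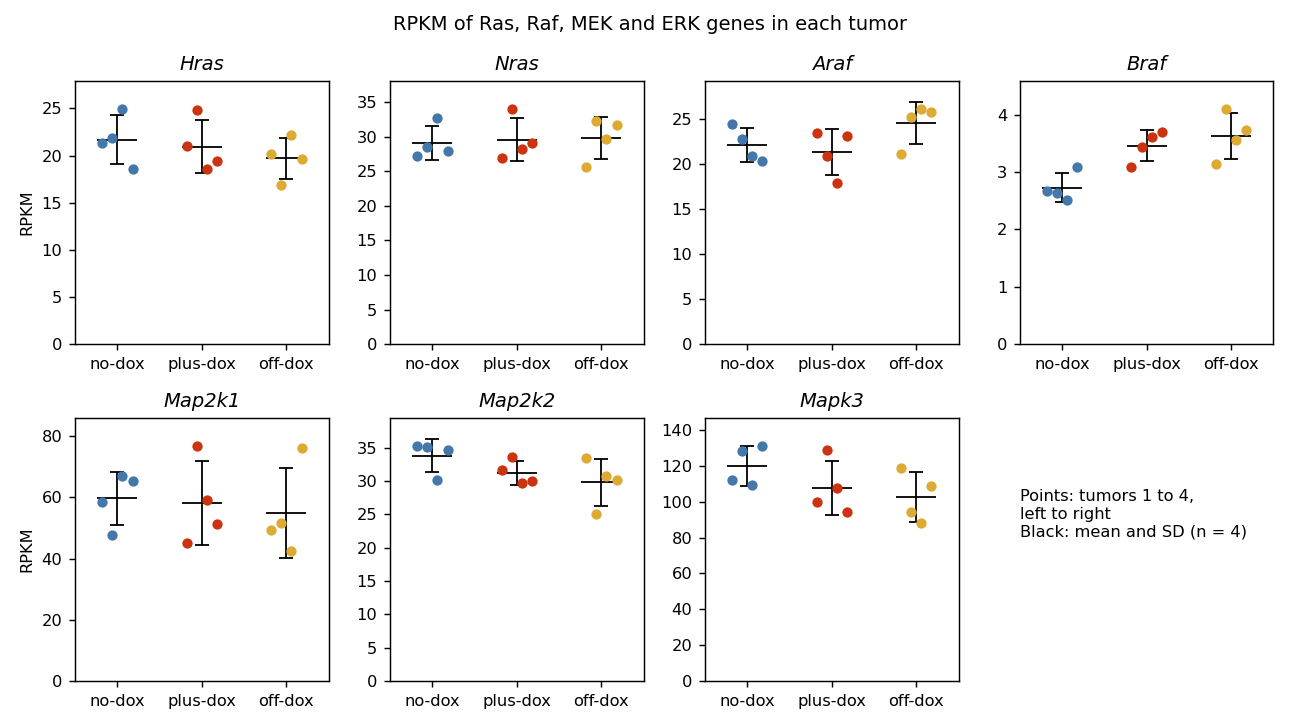
RPKM of the 7 genes in each tumor, with an axis from 0 for each gene; colored points are tumors 1 to 4 of a group from left to right, and black marks give the mean with SD (n = 4). The groups overlap for every gene apart from Braf, whose off-dox tumors (3.13 to 4.10 RPKM) all lie above the no-dox tumors (2.52 to 3.09 RPKM).

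Hras (chromosome 7, 148375833 to 148379903, mm9, minus strand) encodes a membrane-anchored Ras GTPase. Its expression was 21.4, 21.9, 24.9 and 18.6 RPKM in no-dox tumors 1 to 4, 20.99, 24.8, 18.5 and 19.4 in plus-dox tumors 1 to 4, and 20.2, 16.9, 22.2 and 19.7 in off-dox tumors 1 to 4. The groups overlapped, and the lowest value, in off-dox tumor 2, lay within 1.47-fold of the highest, in no-dox tumor 3. Relative to no-dox tumors, the log2 fold change of Hras was -0.04 (SE 0.13) in plus-dox and -0.11 (SE 0.13) in off-dox tumors by edgeR, neither larger than the spread between tumors (adjusted p = 0.89 and 0.64).

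Nras (chromosome 3, 102862208 to 102871837, plus strand) encodes a close relative of the Hras protein. Its values were 27.2, 28.5, 32.6 and 27.9 RPKM in no-dox tumors, 26.8, 34.0, 28.2 and 29.1 in plus-dox tumors and 25.6, 32.3, 29.6 and 31.7 in off-dox tumors. The group means lay within 1 RPKM of each other, at 29.1 ± 2.4 (SD, n = 4), 29.5 ± 3.1 and 29.8 ± 3.0. The log2 fold change against no-dox was 0.03 (SE 0.12, adjusted p = 0.92) in plus-dox and 0.06 (SE 0.12, adjusted p = 0.79) in off-dox tumors by edgeR. Hras made up 41.4% ± 3.0 (SD, n = 12) of the summed Hras and Nras RPKM, from 34.4% in off-dox tumor 2 to 44.1%, also in an off-dox tumor.

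Araf (chromosome X, 20425669 to 20437636, plus strand) encodes the Raf kinase generally regarded as the one with low intrinsic activity. It was measured at 24.5, 22.8, 20.9 and 20.4 RPKM in no-dox tumors, 23.5, 20.9, 17.9 and 23.1 in plus-dox tumors and 21.1, 25.2, 26.1 and 25.8 in off-dox tumors. Off-dox tumors 2, 3 and 4 had the highest values of all 12, while off-dox tumor 1 lay among the other groups. Off-dox exceeded plus-dox by 0.23 on the log2 scale (SE 0.10, 95% interval 0.02 to 0.44, unadjusted p = 0.037 by edgeR), which did not pass correction (adjusted p = 1.0; exact permutation p = 0.086). Against no-dox, the log2 fold change was -0.04 (SE 0.10, adjusted p = 0.85 by edgeR) in plus-dox and 0.18 (SE 0.10, adjusted p = 0.30) in off-dox tumors.

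Braf (chromosome 6, 39553237 to 39675462, minus strand) encodes the Raf kinase with the highest basal activity toward MEK. Of the 7 genes it had the largest fold changes against no-dox, on a scale of a few RPKM. Its values were 2.68, 2.64, 2.52 and 3.09 RPKM in no-dox tumors, 3.08, 3.45, 3.62 and 3.69 in plus-dox tumors and 3.13, 4.10, 3.56 and 3.73 in off-dox tumors. All off-dox values exceeded all no-dox values, though on the TMM-normalized CPM scale off-dox tumor 1 (log2 CPM 5.15) fell just under no-dox tumor 4 (5.17). The group means were 2.73 ± 0.25, 3.46 ± 0.27 and 3.63 ± 0.40 RPKM (SD, n = 4 each) for no-dox, plus-dox and off-dox. Braf was 1.36-fold higher in off-dox than in no-dox tumors by edgeR (log2 fold change 0.44, SE 0.12, 95% interval 0.18 to 0.70, adjusted p = 0.097; exact permutation p = 0.057). The plus-dox difference was 1.28-fold (log2 fold change 0.35, SE 0.12, 95% interval 0.09 to 0.61) and missed the threshold (adjusted p = 0.33 by edgeR; exact permutation p = 0.057). Leaving out each of the 12 tumors in turn gave off-dox adjusted p-values of 0.046 to 0.24 by edgeR, under 0.1 without plus-dox tumor 1, plus-dox tumor 2 or off-dox tumor 1 and not under it in the other 9 cases. Off-dox and plus-dox tumors differed by 0.09 on the log2 scale (95% interval -0.17 to 0.35). Araf made up 87.3% ± 1.9 (SD, n = 12) of the summed Araf and Braf RPKM.

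Map2k1 (chromosome 9, 64033600 to 64101412, minus strand) and Map2k2 (chromosome 10, 80568692 to 80587442, plus strand) encode MEK1 and MEK2, the dual-specificity kinases that phosphorylate ERK and the targets of MEK inhibitors. Map2k1 was at 58.5, 47.8, 66.8 and 65.4 RPKM in no-dox tumors, 45.0, 76.8, 59.1 and 51.4 in plus-dox tumors and 49.2, 51.8, 42.5 and 76.1 in off-dox tumors. It varied more between tumors than between groups, with the 2 highest values in plus-dox tumor 2 and off-dox tumor 4. Its SD within groups was 0.345 on the log2 CPM scale, against 0.123 to 0.199 for the other 6 genes and a median of 0.247 over 14548 genes. Group means were 59.6 ± 8.7, 58.1 ± 13.8 and 54.9 ± 14.7 RPKM (SD, n = 4 each). By edgeR the log2 fold change was -0.03 (95% interval -0.51 to 0.46) for plus-dox and -0.09 (95% interval -0.58 to 0.40) for off-dox against no-dox (adjusted p = 0.96 and 0.85). By mean log2 CPM, plus-dox tumor 2 and off-dox tumor 4 also had the lowest epithelial marker levels. Off-dox tumor 3, with the next lowest level (6.72), had the lowest Map2k1. By summed RPKM of the same genes the order differed, with off-dox tumor 3 lowest (1109), then plus-dox tumor 2 (1367) and off-dox tumor 4 (1581). Over all 12 tumors Map2k1 and the epithelial mean gave r = -0.46 (permutation p = 0.12, adjusted 0.32) and rho = -0.29 (permutation p = 0.37, adjusted 0.62). Without plus-dox tumor 2 and off-dox tumor 4, r was 0.30. The part of tumor composition in the Map2k1 values was not tested.

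**Figure D2:**
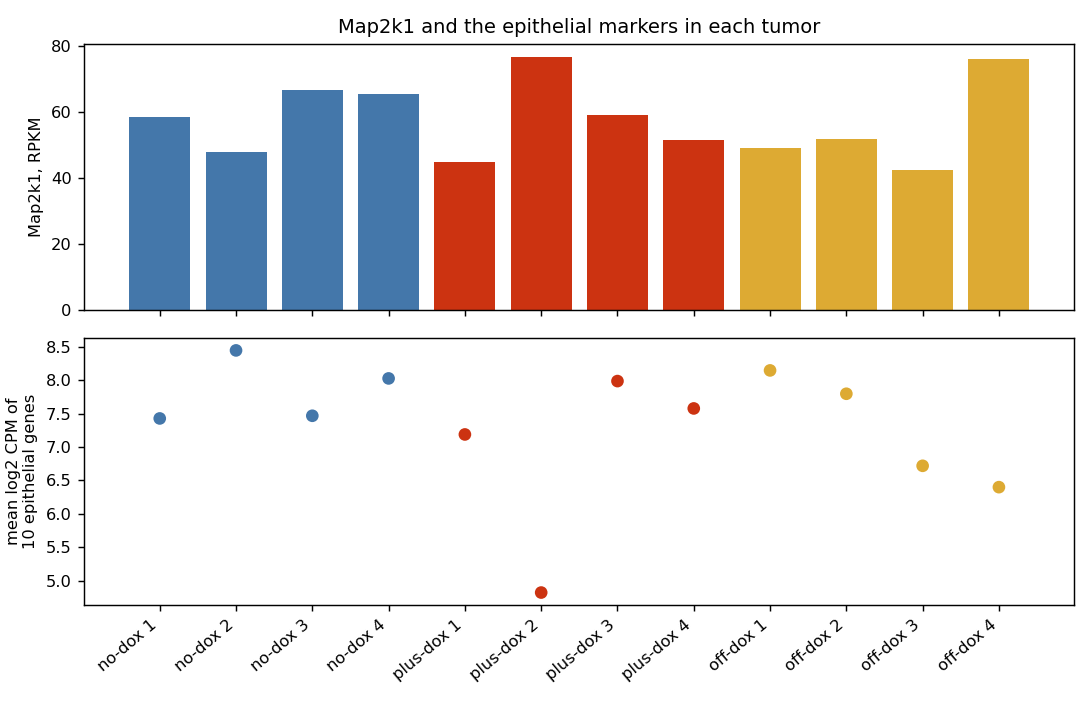
Map2k1 RPKM in each tumor (bars, axis from 0) above the mean log2 CPM of the 10 epithelial marker genes (points; the axis does not start at 0), colored by group. Plus-dox tumor 2 and off-dox tumor 4 have the highest Map2k1 values (76.8 and 76.1 RPKM) and the lowest marker means (4.82 and 6.40). By the summed RPKM of these markers, which is not shown, off-dox tumor 3 is lowest (1109).

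Map2k2 was steadier, at 35.3, 35.2, 30.1 and 34.7 RPKM in no-dox tumors, 31.7, 33.6, 29.7 and 30.1 in plus-dox tumors and 33.5, 25.0, 30.8 and 30.1 in off-dox tumors. No-dox tumors 1, 2 and 4 were the 3 highest of all, but no-dox tumor 3 lay among the dox-treated tumors. The log2 fold change against no-dox was -0.10 (SE 0.10, adjusted p = 0.63) in plus-dox and -0.15 (SE 0.10, adjusted p = 0.39) in off-dox tumors by edgeR. Map2k1 made up 64.1% ± 4.9 (SD, n = 12) of the summed MEK RPKM, between 57.6% and 71.7%.

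Mapk3 (chromosome 7, 133903140 to 133909330, plus strand) encodes ERK1, the terminal kinase of the cascade. It was measured at 111.9, 128.5, 109.4 and 131.2 RPKM in no-dox tumors, 99.8, 129.1, 107.6 and 94.2 in plus-dox tumors and 118.8, 94.2, 88.0 and 109.1 in off-dox tumors. Off-dox tumor 3 was lowest and off-dox tumor 2 and plus-dox tumor 4 followed at nearly the same value, but plus-dox tumor 2 was as high as no-dox tumor 2. Means were 120.2 ± 11.2, 107.7 ± 15.3 and 102.5 ± 14.0 RPKM (SD, n = 4 each). The log2 fold change by edgeR was -0.15 (SE 0.14, adjusted p = 0.63) for plus-dox and -0.20 (SE 0.14, adjusted p = 0.43) for off-dox against no-dox, within the spread between tumors.

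Between plus-dox and no-dox tumors, 0 of the 7 genes were called by edgeR at the study's limits (adjusted p under 0.1, over 1.5-fold), as was 0.0% of the 17561 genes tested. The study itself took the adjusted p for these limits from DESeq2. By an unadjusted edgeR p under 0.05, 1 of the 7 passed (Braf), against 13.7% of all genes, and by DESeq2 with moderated fold changes 0 of the 7 were called, against 0.583% of the genes that it gave an adjusted p. Between off-dox and no-dox tumors, again 0 of the 7 were called, with 1.34% of all genes called, and 0 by DESeq2, with 2.63%. Only Braf, 1 of 7, had an adjusted p under 0.1 there, or an unadjusted p under 0.05, against 3.46% and 20.4% of all genes. Between off-dox and plus-dox tumors 0 of 7 were called, with 0.0% of all genes (0 of 7 and 0.0103% by DESeq2), and 1 of 7 (Araf) had an unadjusted p under 0.05, against 3.06%. On the log2 CPM scale no gene of the 7 separated the groups without overlap in any of the 3 comparisons, where 8.86%, 11.5% and 1.4% of all genes did.

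The intervals bound how large a difference these tumors leave room for. Apart from Braf, the 95% interval of every gene lay inside 1.5-fold in all 3 comparisons. For Braf the upper bound reached 1.53-fold for plus-dox and 1.62-fold for off-dox against no-dox. Over all genes the interval lay inside 1.5-fold for 41.3%, 36.8% and 48.5% in the 3 comparisons. The median log2 fold change of the 7 genes was -0.042 for plus-dox and -0.089 for off-dox against no-dox and -0.049 for off-dox against plus-dox, beside medians of 0.013, 0.007 and -0.001 over all genes tested. A joint test for any difference among the 3 groups gave an adjusted p of 0.22 for Braf by edgeR and 0.38 to 0.97 for the other 6 genes, and the smallest over all genes was 0.20.

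**Figure D3:**
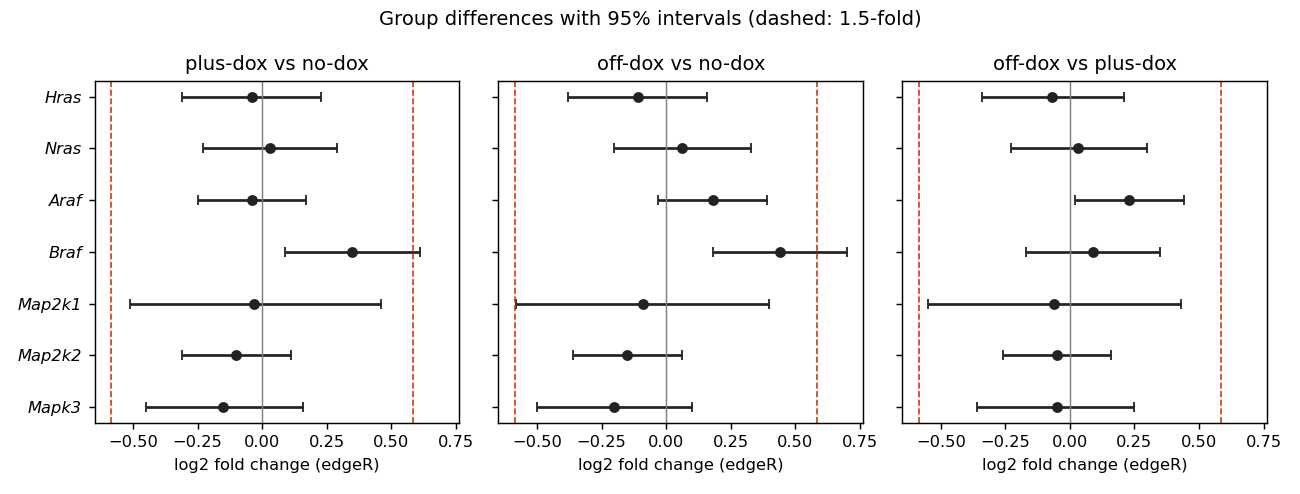
Log2 fold changes of the 7 genes with 95% intervals (edgeR) in the 3 comparisons, with dashed lines at 1.5-fold. Intervals stay inside the dashed lines for all genes but Braf, whose interval reaches 1.62-fold for off-dox vs no-dox.

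The Braf difference was set beside exonic length and beside the share of mapped reads that fell on genes. Braf has the longest exonic sequence of the 7 genes (9727 bases, percentile 98.2 of 14548 genes). The 257 other genes at least as long had a median log2 fold change of 0.39 for off-dox against no-dox, where 232 of 257 were higher, and of 0.29 for plus-dox against no-dox, where 228 of 257 were higher. The medians over all lengths were -0.02 and -0.01. Set against the median log2 CPM of these 257 genes in the same tumor, Braf lay 1.00 ± 0.11 (SD, n = 4) lower in no-dox, 0.92 ± 0.13 lower in plus-dox and 0.96 ± 0.13 lower in the off-dox group. On that scale, which was chosen after seeing the data, off-dox exceeded no-dox by 0.04 (exact permutation p = 0.66) and plus-dox exceeded no-dox by 0.08 (exact permutation p = 0.43).

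The other genes could be placed on the same length scale. Genes of 1453 to 1850 exonic bases, the range of Mapk3, had a median log2 fold change of -0.13 for off-dox against no-dox, beside -0.20 for Mapk3. Genes of 2251 to 2682 bases had a median of -0.07, beside -0.11 for Hras, -0.15 for Map2k2 and -0.09 for Map2k1. In the range of Nras (3745 to 4535 bases) the median was 0.05 and Nras was at 0.06, and in the range of Araf (3159 to 3745 bases) the median was -0.01 and Araf was at 0.18. Braf was at 0.44 beside a median of 0.25 in the widest range, 6010 bases and longer. Of the 7 genes Araf and Braf thus lay farthest from the medians of their ranges, about equally far. The 257 other genes at least as long as Braf had a median of 0.39, nearer to its value. What makes fold change vary with length in these libraries was not tested, and no measure of RNA integrity is given in the sources used here.

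**Figure D4:**
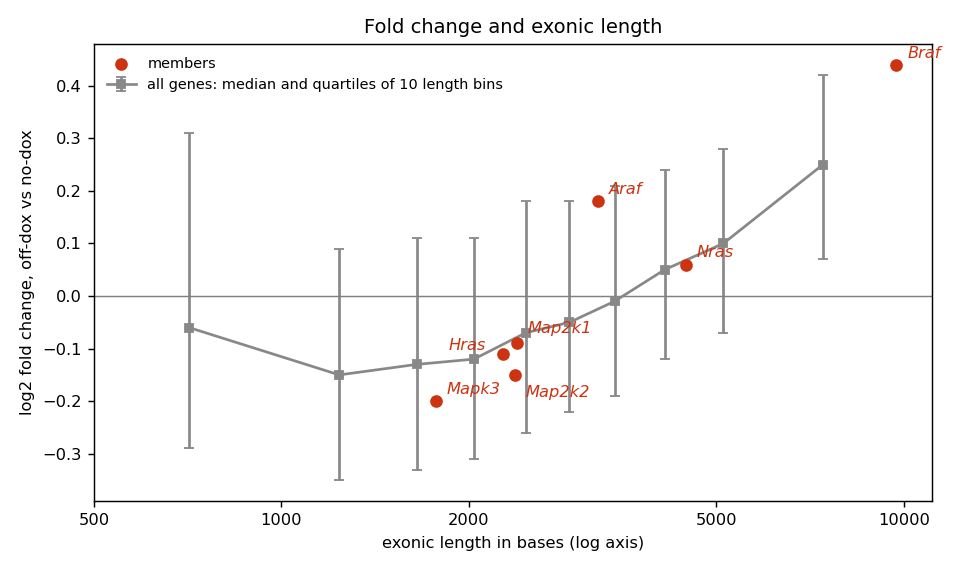
Log2 fold change of off-dox relative to no-dox tumors against exonic length on a log axis, for the 7 genes (red) and for all genes with a mean over 0.25 RPKM in 10 length bins (grey squares, medians, with bars from the lower to the upper quartile). The bin medians go from -0.06 in the shortest bin (median 711 bases) to -0.15 at 1239 bases and then rise to 0.25 at 7414 bases, and Braf (9727 bases) lies at 0.44.

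Braf also followed the share of mapped reads that fell on genes. Over the 12 tumors the correlation was negative (r = -0.85, permutation p = 0.00086, adjusted 0.018 over 21 relations; rho = -0.78, adjusted permutation p = 0.077) and r was -0.86 without the 2 tumors farthest from the median share. After centring on the group means r was -0.55. Because all 4 no-dox tumors lay above the others in this share, the 8 tumors given dox were also taken alone, and gave r = -0.75 (exact permutation p = 0.035) and rho = -0.71 (exact permutation p = 0.058), and r = -0.63 without the 2 farthest of them. With this share as a covariate in the edgeR fit, the Braf log2 fold change was 0.15 for both off-dox and plus-dox against no-dox (adjusted p = 1.0 for each). The share and the dox groups moved together, so their parts in the Braf difference cannot be told apart.

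Over the 12 tumors, Map2k2 and Mapk3 had the highest correlation of the 21 pairs among the 7 genes. Their log2 CPM gave r = 0.74 (permutation p = 0.0031, adjusted 0.065) and rho = 0.90 (permutation p = 0.00026, adjusted 0.0055). Without the 2 tumors farthest from the Map2k2 median r was 0.77, and after centring on the group means it was 0.67. The next pair was Nras and Map2k1, at r = 0.69 (permutation p = 0.017, adjusted 0.18) and rho = 0.70 (adjusted permutation p = 0.16), with r = 0.53 without no-dox tumor 3 and plus-dox tumor 2. The order depended on the measure, since after centring Nras and Map2k1 were higher, at 0.73, and without the 2 farthest tumors Nras and Braf were, at 0.80 (0.44 over all 12). The paralog pairs were less close, with r = 0.37 for Hras and Nras, 0.28 for Araf and Braf and 0.26 for Map2k1 and Map2k2 (adjusted permutation p = 0.51, 0.52 and 0.57). Mapk3 and Map2k2 also tended to be higher where more reads were counted on genes (r = 0.61 and 0.64, adjusted permutation p = 0.20 and 0.17), values that did not pass correction.

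**Figure D5:**
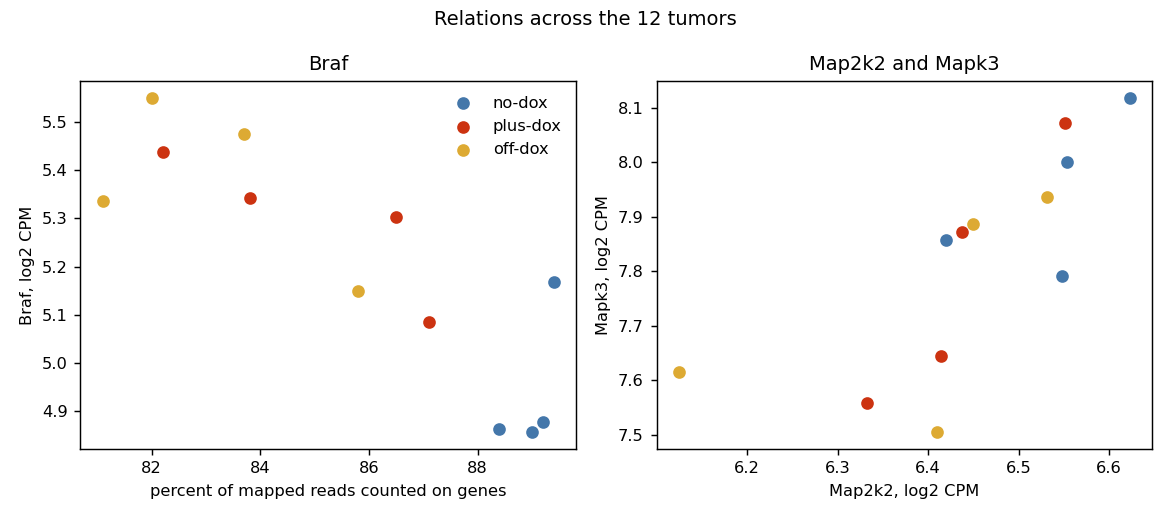
Left, Braf (log2 CPM) against the percent of mapped reads counted on genes, and right, Mapk3 against Map2k2 (both log2 CPM), 1 point per tumor colored by group; the axes do not start at 0. Braf falls as the percent rises (r = -0.85, n = 12), and Mapk3 rises with Map2k2 (r = 0.74, n = 12).

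Ratios between members, 3 within a tier and Mapk3 to Map2k1 across tiers, do not depend on the scaling of a library, and none passed a test of difference between groups. Over 12 tests (4 ratios, 3 comparisons) the smallest exact permutation p was 0.057, for Araf to Braf in plus-dox against no-dox tumors, where the mean log2 ratio fell by 0.40 (adjusted p = 0.69). The Araf to Braf ratio ran from 6.60 to 9.14 (no-dox), 4.96 to 7.62 (plus-dox) and 6.16 to 7.33 (off-dox), so that all groups overlapped. Mapk3 to Map2k1 ran from 1.64 to 2.69, 1.68 to 2.22 and 1.43 to 2.41 in the same order, and Map2k1 to Map2k2 from 1.36 to 2.22, 1.42 to 2.29 and 1.38 to 2.53. Hras to Nras ran from 0.666 to 0.786, 0.659 to 0.782 and 0.524 to 0.789. The smallest p that 70 arrangements of 4 against 4 tumors allow is 0.029.

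Against the marker lists, no relation of a member passed correction. Hras and the fibroblast mean gave r = 0.60 (permutation p = 0.040, adjusted 0.20) and rho = 0.37, and r was -0.04 without no-dox tumor 3 and plus-dox tumor 2, so the relation rested on those tumors. Mapk3 and the epithelial mean gave r = -0.04 over all tumors (adjusted permutation p = 0.96) and 0.76 without plus-dox tumor 2 and off-dox tumor 4. The epithelial relations therefore changed with these 2 tumors, and the part of host cells in the members' values was not tested.

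The genes whose log2 CPM followed each member most closely over the 12 tumors were picked from 12687 genes with a mean over 1 RPKM. For Braf these were Wdr26 (r = 0.98), Taok1 and Hook3 (both 0.97), whose exonic lengths of 7047, 12409 and 12836 bases were also long. Nras was followed by Fbxo30 (0.97), Tmtc3 (0.95) and Papd4 (0.94), and Hras by 2700094K13Rik, Bax and Ube2g2 (0.93 each). Map2k1 was followed by Sh3bgrl2 (0.97), Rem2 (0.96) and Arl8b (0.94), Map2k2 by Sgta (0.95), Snx21 and Atp5d (both 0.93), and Mapk3 by Hpcal1 and Nudc (both 0.92) and Mfge8 (0.91). Araf had the weakest partners, Lrrc20 (0.85), Mir1982 and Dtna (both 0.84). These values describe the closest of many genes and carry no test.

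Other genes of the pathway were read from lists of upstream regulators, processing enzymes, scaffolds and outputs. Upstream, 1 of 14 adaptors and Ras exchange factors was called between off-dox and no-dox tumors, where 1.03% of all genes were called higher. Gab2, an adaptor that links receptors to Ras activation, averaged 7.21 ± 0.60 RPKM after dox removal, compared with 4.87 ± 0.50 RPKM without dox (SD, 4 tumors each; log2 fold change 0.59, adjusted p = 0.098 by edgeR), with no overlap between 6.69 to 8.07 and 4.47 to 5.59 RPKM. By DESeq2 with moderated fold changes the Gab2 log2 fold change was 0.53, under 1.5-fold, so Gab2 missed the limit by that method. The list's median log2 fold change was 0.24. Frs2, an adaptor of FGF receptors, and Rasgrp1, a Ras exchange factor, had log2 fold changes of 0.24 and 0.56 there and did not pass (adjusted p = 0.17 and 0.20 by edgeR).

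Among 11 measured Ras GTPase-activating proteins and related inhibitors, 1 was called between off-dox and no-dox tumors, again beside 1.34% of all genes. Rasal3, a Ras GTPase-activating protein found mainly in blood cells, averaged 2.67 ± 0.51 RPKM in the off-dox group, compared with 1.73 ± 0.27 RPKM in the no-dox group (SD, 4 tumors each; log2 fold change 0.66, adjusted p = 0.089 by edgeR). Among neutrophil markers, 2 of 4 genes were called higher in the same comparison (1.03% of all genes). Their summed level ranged over 22.8 to 34.6 RPKM (no-dox), 33.5 to 56.6 RPKM (plus-dox) and 23.5 to 49.2 RPKM (off-dox). Markers of T and NK cells, none with a mean over 1 RPKM, summed to 0.5645 to 0.8693 RPKM (no-dox). They summed to 1.533 to 2.072 RPKM (plus-dox) and 1.338 to 1.967 RPKM (off-dox), neither overlapping the no-dox range. Of the 5, 1 was called higher in off-dox against no-dox tumors. Of the 5 macrophage markers 0 were called. Their sums were 320.8 to 396.0 RPKM (no-dox), 280.0 to 365.7 RPKM (plus-dox) and 231.2 to 381.4 RPKM (off-dox). For plus-dox against no-dox, 3 of 4 neutrophil and 2 of 5 T and NK genes were higher (unadjusted edgeR p under 0.05). Of all genes, 13.7% had such a p in either direction. Rasal3 did not, since Nf1 and Rasa4 were the only genes of its list that did. The part of blood cells in the Rasal3 difference was not tested. Nf1, which encodes neurofibromin, had an adjusted p of 0.093 by edgeR but a log2 fold change of 0.57, under 1.5-fold. Between plus-dox and no-dox tumors its log2 fold change was 0.47 (adjusted p = 0.33). Rasa4, another GTPase-activating protein, had log2 fold changes of 0.48 for plus-dox and 0.63 for off-dox against no-dox (adjusted p = 0.34 and 0.12 by edgeR). The exonic length of Nf1, 11847 bases, like that of Gab2 (6008 bases), lay in the upper part of the length scale. Rasal3 (3151 bases) and Rasa4 (2914 bases) did not. Genes in their range, 2682 to 3158 bases, had a median log2 fold change of -0.05 for off-dox against no-dox. Both calls, Gab2 and Rasal3, were lost (adjusted p = 0.11 to 0.23 by edgeR) on leaving out any one of the 4 no-dox tumors, plus-dox tumors 3 and 4 or off-dox tumors 2, 3 and 4, and held without plus-dox tumor 1, plus-dox tumor 2 or off-dox tumor 1.

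Of the 8 enzymes that process Ras proteins 0 were called, and their median log2 fold change was -0.16 for off-dox against no-dox. In that comparison 1.34% of all genes were called. Rce1, the protease that trims prenylated Ras, averaged 14.4 ± 2.0 RPKM after dox removal and 18.9 ± 1.6 RPKM without dox (log2 fold change -0.36, adjusted p = 0.11 by edgeR), Lypla1, a depalmitoylating thioesterase, had -0.29 (adjusted p = 0.14), and Fnta, a farnesyltransferase subunit, had -0.25 (adjusted p = 0.19). None of these 3 passed the threshold. Of 15 scaffolds and Raf modulators 0 were called, with medians of -0.03 for plus-dox and -0.13 for off-dox against no-dox. Hsp90ab1, a chaperone of Raf kinases, was at 608 ± 67 RPKM after dox removal and 785 ± 52 RPKM without dox (log2 fold change -0.34, adjusted p = 0.16 by edgeR). Ksr2, a kinase-like scaffold, was near 0 in all tumors, at 0.0744 ± 0.0586 RPKM with dox and 0.0131 ± 0.0111 RPKM without (log2 fold change 2.45, adjusted p = 0.33 by edgeR), and Cnksr2, another scaffold, averaged 1.09 ± 0.83 RPKM after dox removal and 0.493 ± 0.106 RPKM without dox (log2 fold change 1.18, adjusted p = 0.18). Pebp1, the Raf kinase inhibitor protein, had a log2 fold change of -0.27 (adjusted p = 0.17 by edgeR).

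Downstream of ERK, 0 of 16 feedback and output genes were called in any of the 3 comparisons. Their medians were 0.15, 0.18 and 0.06 on the log2 scale for plus-dox against no-dox, off-dox against no-dox and off-dox against plus-dox. Of all genes, only 0.0%, 1.34% and 0.0% were called in these comparisons by edgeR. Phlda1, a gene induced by ERK signaling, averaged 29.6 ± 5.5 RPKM after dox removal and 41.1 ± 4.3 RPKM without dox (log2 fold change -0.45, adjusted p = 0.12 by edgeR). Fos, an immediate early transcription factor gene, was at 19.6 ± 3.8 and 32.2 ± 16.5 RPKM (log2 fold change -0.71, adjusted p = 0.23 by edgeR), with no-dox values from 21.1 to 56.6 RPKM. Neither passed the threshold. Of the 7 kinases that ERK phosphorylates 0 were called. Rps6ka5 and Mknk1, 2 of these kinases, had log2 fold changes of 0.40 and 0.26 for off-dox against no-dox (adjusted p = 0.17 and 0.20 by edgeR). Of 6 further Ras, Raf and ERK genes 0 were called in any comparison, with medians of -0.06, -0.09 and -0.05 in the same order. Between plus-dox and no-dox tumors, and between off-dox and plus-dox tumors, 0 genes of any pathway list were called, as was 0.0% of all genes.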

How the data were processed

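RNA was sequenced from 12 tumors, 4 per group. Per the labels and the study's methods, the authors mapped 50-base reads to mm9 with TopHat 1.4.1, condensed RefSeq genes to unstranded exonic spans, and deposited base-wise expected counts (estimated counts, not normalized) and RPKM (per kilobase and total of mapped reads). The submitters' processing notes also list CASAVA 1.8.2, Bowtie 0.12.8 and bedtools 2.16.2. Deposited counts were rounded, and genes with at least 10 summed counts (17561) were fitted in edgeR 4.0.16 (R 4.3.3; TMM, quasi-likelihood, 3 groups, no covariates), with Benjamini-Hochberg adjustment over all genes. Study limits were an adjusted p under 0.1, over 1.5-fold, a mean over 0.25 RPKM and a length over 250 bases. The study applied them to DESeq2 results, while here they were applied to edgeR results unless DESeq2 is named. Log2 CPM used a prior count of 2. Single values and ratios were compared by exact two-sided permutation tests, correlations by 100000 permutations (Python 3.11.15, scipy 1.17.1). Intervals are 95%. DESeq2 1.42.0 and the other alternatives are described at the end. The fitting step was tested on simulated data. Tumors sharing a mouse are not identified in the sources used here, so p-values are too small if they did, and may measure only the spread between these tumors.

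The members and lists were chosen with earlier results of these data known. Genes named are the members, up to 3 genes per list and comparison with the smallest unadjusted p under 0.05, the 3 closest genes per member, and the leading 2 of the epithelial and fibroblast markers. Some further epithelial and acinar markers are named for their values in single tumors. Some genes of these lists, the gene under the dox switch and the Ras coding windows are not reported here. Coding windows, exons and pseudogenes were read from the NCBIM37 (mm9) genome with GENCODE annotation.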

Additional observations from a re-analysis of the deposited data

Results flagged for a closer look

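Map2k2 in no-dox tumor 3, at 30.14 RPKM, stood apart from the other no-dox tumors (34.74 to 35.28 RPKM), with a gap of 0.90 of the group's range to the nearest of them. It was the single such case among 33 groups of 4 tumors (7 genes and 4 ratios in 3 groups), and chance alone singles out about 1 group in 20. The cause was not tested.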

How the results depend on the processing

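No member was called by the study's limits in any of the 3 comparisons under any alternative run, including DESeq2, RLE normalization, other count filters, fits of a pair alone and each tumor left out. The Braf difference between off-dox and no-dox tumors kept its direction throughout, but its adjusted p ran from 0.021 (DESeq2) to 1.0 (share of reads on genes as covariate), and the number of members with an adjusted p under the limit was 0 without a count filter, in the pair alone, under the replicate block, with the covariate, without plus-dox tumor 2 and off-dox tumor 4, and at an adjusted p under 0.05. The covariate, the set without these 2 tumors and the scale relative to long genes were chosen after seeing the data. The cause of these changes was not tested.

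The 2 pathway list genes called between off-dox and no-dox tumors became 0 without a count filter, in the pair alone, under the replicate block, with the covariate and at an adjusted p under 0.05, 1 without the 2 tumors, and 4 with at least 10 counts in every tumor or with unmoderated DESeq2. With moderated DESeq2 the number was again 2, but Gab2 was not among them (log2 fold change 0.53, under 1.5-fold). All genes called in that comparison numbered 235 and became 122 without a filter, 365 with at least 10 counts in every tumor, 3 in the pair alone, 0 under the replicate block, with the covariate or at an adjusted p under 0.05, 401 and 614 with moderated and unmoderated DESeq2, and 473 without the 2 tumors. For plus-dox against no-dox, DESeq2 called 91 and 126 genes, and for off-dox against plus-dox 2 and 6, where edgeR called 0. Replicate numbers are not said to pair tumors, and tumors of the same number did not deviate together (mean r = -0.088 over 12 pairs, 0.043 over 36 pairs of different numbers), so the replicate block has no basis in the design.

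Leaving out each tumor in turn gave 0 to 1 members with an adjusted p under 0.1, 0 to 4 pathway list genes called and 0 to 786 genes called in all between off-dox and no-dox tumors, 0 to 3 called for plus-dox against no-dox and 0 to 1 between off-dox and plus-dox tumors. Members with an exact p under 0.05 numbered 0 to 1 in the 2 comparisons of off-dox tumors, and 1 between off-dox and no-dox tumors on the log2(RPKM + 0.1) scale. Differences near 0 changed sign. Over the left-out tumors, the plus-dox log2 fold change against no-dox ran from -0.14 to 0.05 for Hras, -0.05 to 0.11 for Nras, -0.08 to 0.01 for Araf and -0.19 to 0.09 for Map2k1. The off-dox change against no-dox ran from -0.31 to 0.02 for Map2k1. Off-dox against plus-dox ran from -0.12 to 0.03 for Hras, -0.02 to 0.11 for Nras, -0.28 to 0.11 for Map2k1, -0.10 to 0.03 for Map2k2 and -0.13 to 0.05 for Mapk3. Log2 ratio differences ran from -0.06 to 0.18, -0.12 to 0.17 and -0.18 to 0.12 for Map2k1 to Map2k2 in the 3 comparisons (plus-dox vs no-dox, off-dox vs no-dox, off-dox vs plus-dox), from -0.21 to 0.03, -0.21 to 0.04 and -0.10 to 0.15 for Mapk3 to Map2k1, from -0.18 to 0.02 for Hras to Nras between off-dox and plus-dox, and from -0.36 to -0.20 for Araf to Braf between off-dox and no-dox tumors (exact p = 0.029 without no-dox tumor 4).

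With the covariate, plus-dox against no-dox turned to 0.07 for Hras, -0.03 for Nras, 0.09 for Map2k1, 0.02 for Map2k2 and 0.07 for Mapk3, off-dox against no-dox to 0.05, -0.02, 0.08, 0.03 and 0.10 in the same order, and off-dox against plus-dox to 0.00 for Map2k2 and 0.03 for Mapk3 (adjusted p = 1.0 for each by edgeR). Without the 2 tumors, Nras turned to -0.05 for plus-dox against no-dox, and Hras and Mapk3 to 0.02 and 0.01 for off-dox against plus-dox. Relative to long genes, Braf turned to -0.04 for off-dox against plus-dox.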
